A study of Homo sapiens with 6 samples.

Results

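HOX genes encode the homeodomain transcription factors that record the position of a cell along the body axis, and the 39 protein-coding HOX genes of the human genome were followed here in LX-2 cells. They were taken as the rows of the deposited count table annotated as protein-coding and named HOXA, HOXB, HOXC or HOXD plus a number, which gave 39 of 58735 rows, 11 in the HOXA cluster, 10 in HOXB, 9 in HOXC and 9 in HOXD. LX-2 is an established line of human hepatic stellate cells, the vitamin A-storing pericytes of the liver that turn into collagen-producing myofibroblasts in fibrosis. All 6 RNA-seq libraries came from wild-type LX-2 cells transfected with an siRNA against NSUN2, an RNA cytosine methyltransferase. In 3 of them the cells also received TGF-β1, the main fibrogenic cytokine of the liver, at 5 ng/ml for 24 h beginning 48 h after transfection (called TGF-β1 libraries below), and the other 3 received no TGF-β1 (called untreated libraries). The design text of the series names another siRNA target, NAT10, for the same libraries, whereas each sample's own labels name NSUN2, and the sample labels are followed. Every library carries the siRNA, and libraries without it were not analysed here, so the comparison reads TGF-β1 in NSUN2-siRNA cells of 1 line and says nothing of the siRNA itself. The time of harvest of the untreated libraries is not stated in the labels.

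The 39 genes lie in 4 clusters, each on its own chromosome. On hg38 the HOXA genes lie on chromosome 7 and the HOXB genes span chr17:48528526-48729178, both on the minus strand, and the HOXC genes span chr12:53938765-54056030 and the HOXD genes chr2:176092891-176190907, both on the plus strand. Genes with the same number in different clusters are paralogues, descended from one ancestral gene, and form 13 paralogue groups. Low-numbered (anterior) genes are used in the hindbrain and neck of the embryo, and high-numbered (posterior) genes in the lower trunk, limbs and genital tract. Adult fibroblasts keep a HOX pattern that reflects the body region they came from, which is why the family is read as a positional code. HOX proteins bind DNA with PBX, MEIS and PKNOX cofactors, and the clusters are held silent by Polycomb complexes, opened by Trithorax complexes and induced in order by retinoic acid in the embryo.

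The clusters also encode microRNAs and antisense transcripts. The mature miR-196 sequences (RefSeq, GRCh38.p14) are shown because the miR-196 hairpins sit inside 3 of the clusters and because the host interval of 1 of them, upstream of HOXB9, is described below. Capitals mark the seed, bases 2 to 8. The seed is the same in both.
miR-196a-5p: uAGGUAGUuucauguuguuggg
miR-196b-5p: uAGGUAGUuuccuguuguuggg
miR-196a is encoded at chr17:48632532-48632553 on the minus strand, in the HOXB cluster, and again in HOXC at chr12:53991762-53991783 on the plus strand. miR-196b is encoded in HOXA at chr7:27169528-27169549 on the minus strand. These libraries measured long RNA, so a count on a hairpin row is not a measure of the mature microRNA.

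The 250 bases before the RefSeq start (GRCh38.p14) are given for HOXD10 and HOXD11, adjacent genes with the largest increases of the family, and for HOXD13, which lies in the same cluster and was not called. The promoter table held 20 of the 39 genes, with 27 starts. HOXC4 and HOXC5 have the same start there, and their window was counted for each gene. Both strands were searched for TATAAA (the TATA box), CCAAT (the NF-Y box), TGACTCA (the AP-1 site), TGACAG (a MEIS and TGIF core), CAGAC and GTCTAGAC (the SMAD box and its palindrome) and CACGTG (an E-box), the last added after the sequences had been read. Capitals mark every match.
HOXD10, chr2:176116528-176116777, plus strand: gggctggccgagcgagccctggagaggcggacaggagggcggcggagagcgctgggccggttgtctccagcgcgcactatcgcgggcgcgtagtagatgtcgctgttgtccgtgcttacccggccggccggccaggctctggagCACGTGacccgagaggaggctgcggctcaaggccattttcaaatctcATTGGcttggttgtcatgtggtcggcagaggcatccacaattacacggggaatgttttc
HOXD11, chr2:176107030-176107279, plus strand: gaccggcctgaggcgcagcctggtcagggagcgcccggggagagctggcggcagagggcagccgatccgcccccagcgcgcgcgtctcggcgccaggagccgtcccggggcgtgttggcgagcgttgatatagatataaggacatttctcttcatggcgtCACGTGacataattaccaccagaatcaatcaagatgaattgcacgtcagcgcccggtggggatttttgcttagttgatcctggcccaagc
HOXD13, chr2:176092471-176092720, plus strand: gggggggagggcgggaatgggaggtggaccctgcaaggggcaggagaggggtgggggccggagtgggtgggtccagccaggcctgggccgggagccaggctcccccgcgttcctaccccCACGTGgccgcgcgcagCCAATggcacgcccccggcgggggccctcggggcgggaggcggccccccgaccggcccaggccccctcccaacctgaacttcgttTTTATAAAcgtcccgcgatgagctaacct
All 3 windows held CACGTG, which 6.34% of the 35097 promoter windows of the same length also held, against 8 of the 27 HOX windows. HOXD13 alone of the 3 held TATAAA, found in 10.7% of all windows. HOXD10 and HOXD13 held CCAAT, found in 32% of all windows and in 18 of the 27 HOX windows, the HOXC4 and HOXC5 window counted for each. None of the 3 held CAGAC, found in 38% of all windows, TGACTCA (4.2%), TGACAG (13%) or GTCTAGAC (0.182%). HOXD13 held TATAAA on both strands, in overlapping matches, and TGACAG and CAGAC can overlap each other by 3 letters. These are matches of letters in short windows and carry no evidence on binding.

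Between 25828504 and 30034762 reads were assigned to genes per library, and 33743 of 58735 rows had at least 1 count. The first principal component separated the 2 groups and held 58.7% of the variance, while TGF-β1 libraries ranged from -27.4 to 33.1 on the next component (12.1%) and untreated ones from -1.6 to 1.7. NSUN2 itself had 102.7, 97.0 and 101.9 CPM (counts scaled to the size of the library) in the TGF-β1 libraries, against 81.4, 82.9 and 84.4 CPM in the untreated libraries. Its log2 fold change, TGF-β1 minus untreated, was 0.28 ± 0.04 (SE, edgeR adjusted p = 1.57e-06), and with no library free of the siRNA this does not check the knockdown. NAT10 averaged 68.2 ± 2.28 CPM with TGF-β1 and 66.9 ± 4.84 CPM untreated (SD, n = 3 each), a log2 fold change of 0.03 ± 0.05 (edgeR adjusted p = 0.726). Of all 17215 genes tested 38.9% were called (edgeR adjusted p under 0.05), 20.2% higher and 18.7% lower with TGF-β1. Of 13 immediate TGF-β target genes, 10 were higher and 2, ID1 and ID2, lower. They were led by PMEPA1, a feedback inhibitor of the pathway, at 512 ± 13.5 CPM against 9.83 ± 0.836 CPM untreated (log2 fold change 5.70). Among 16 stellate cell markers, 12 were expressed enough to test and all 12 were called, 7 higher (COL1A1, COL1A2, COL3A1, LOX, PDGFRB, TIMP1 and VIM) and 5 lower (ACTA2, NGFR, GFAP, RELN and HAND2). Their summed level was 5550 to 6190 CPM with TGF-β1 and 2880 to 2940 CPM untreated, of which collagen COL1A1 made up 3993 ± 319 CPM with TGF-β1 and 1418 ± 6.13 CPM untreated. LRAT, the retinol-esterifying enzyme of stellate cells, was at 0 counts in all 6 libraries. Of 10 hepatocyte markers 2 could be tested and APOB, TTR, CYP3A4 and FGB were at 0, and of 8 macrophage and leukocyte markers 2 could be tested and CD3E was at 0. Summed marker levels were 84.4 to 87.4 against 70.1 to 79.9 CPM for hepatocytes, 35.9 to 40.1 against 19.8 to 25.6 CPM for endothelium, 26 to 31.1 against 35.6 to 38.9 CPM for cholangiocytes, 15 to 18 against 11.8 to 14.8 CPM for leukocytes and 1760 to 1830 against 1350 to 1420 CPM for smooth muscle and portal fibroblasts, TGF-β1 libraries first in each. Members of 3 of these lists were called both ways: CSF1R was higher and CD14 lower among leukocyte markers, KRT7 higher and SPP1 lower among cholangiocyte markers, and FBLN2 and GREM1 higher and THY1 lower among smooth muscle and portal fibroblast markers, 4 of whose 7 tested genes were not called. Of 2 tested hepatocyte markers CPS1 alone was called, and of 3 tested endothelial markers TEK alone, both higher. Log2 fold changes of the tested endothelial markers ran from -0.91 to 0.84. The part of these marker shifts in the HOX values was not tested.

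LX-2 cells transcribed all 4 HOX clusters, with HOXB far ahead. Every one of the 39 genes had at least 1 count over the 6 libraries, 12 had 1000 or more, 17 had at least 100 but fewer than 1000, 8 had at least 10 but fewer than 100 and 2, HOXA9 and HOXB1, had fewer than 10. HOXB genes held 71.0% of all HOX counts, HOXC genes 15.6%, HOXD genes 8.88% and HOXA genes 4.59%. By position the counts were spread more evenly, with 29.5% on the anterior genes (groups 1 to 3), 35.6% on the central genes (groups 4 to 8) and 34.9% on the posterior genes (groups 9 to 13).

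Levels were compared between genes as CPM per kilobase of exon that no other row shares, because reads in exons shared with another row had not been counted to either: of rows with every exonic base shared, with partners of at least 1000 summed counts, 695 of 695 on the same strand and 378 of 378 on the opposite strand alone were at 0. HOXB9, a posterior gene of the thoracic region, stood highest at 23.8 CPM per unshared kilobase (mean of 6 libraries). HOXB7 followed at 23.1, HOXB2, a hindbrain gene, at 21.1, HOXB6 at 10.99, HOXB4, known for expanding blood stem cells, at 9.20 and HOXB3 at 8.22. The highest gene outside HOXB was HOXD10, a gene of the limb and lumbar cord, at 6.91, then HOXC4 at 5.79, HOXC9 at 4.98 and HOXC6 at 4.63. The HOXA genes were all below these, with HOXA11, a gene of the forearm and uterus, leading at 2.16 and the rest of the cluster between 0.0166 (HOXA9) and 1.19 (HOXA3).

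Several genes stood near the limit of detection, where 3 counts are worth 0.0999 to 0.116 CPM of a library's total. HOXB1, a hindbrain gene, had 1 count in all, in untreated library 3. HOXA9 had 6 counts and HOXA10 11 over the 6 libraries although 2210 and 2731 bases of their exons are unshared, while HOXA11 next to them had 570 counts. HOXC12 and HOXD12, the sole members of group 12, had 24 and 26 counts. HOXD1, HOXD3 and HOXD4 had 36, 14 and 39 counts, but 58.1%, 74.1% and 80.5% of their exonic bases are shared with neighbours or antisense rows, so their counts understate them by an unknown amount. The same limit applies to HOXA7 (62.5% shared) and HOXC5 (59.9% shared, partly with another row of that name). In bulk RNA, fewer cells of one kind and less RNA per cell cannot be told apart.

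**Figure D1:**
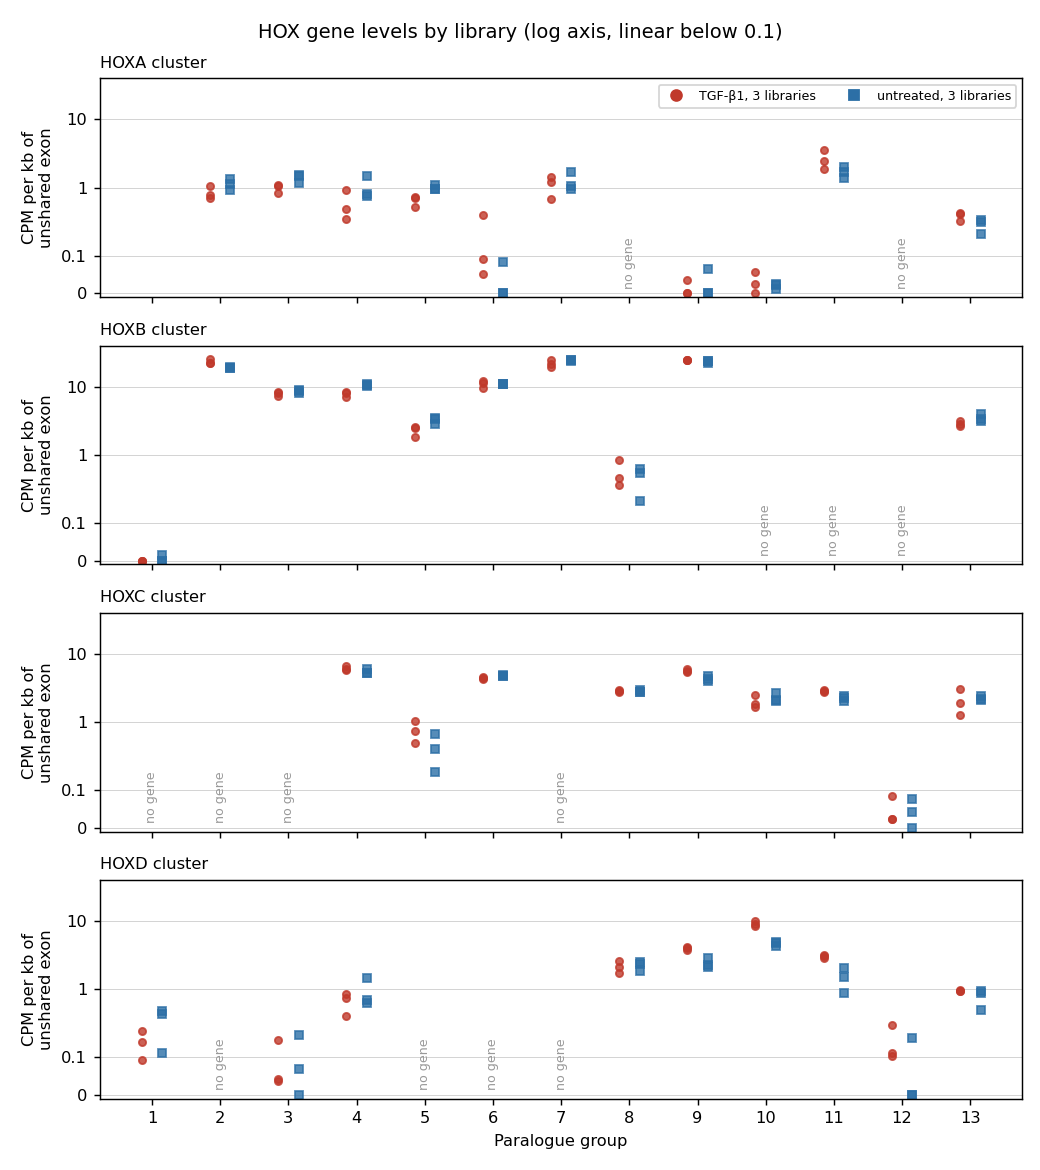
Level of 38 HOX genes in each library, as CPM per kilobase of exon shared with no other row, against paralogue group, one panel per cluster; the axis is logarithmic above 0.1 and linear below. Circles are the 3 TGF-β1 libraries and squares the 3 untreated libraries. HOXB2, HOXB7 and HOXB9 lie above 10, while HOXA9, HOXA10, HOXB1 and HOXC12 lie near 0.

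With TGF-β1 some HOX genes rose and others fell, all tested genes but HOXD11 by less than 2-fold. Of the 7 called increases 6 were on posterior genes (12 of the 30 tested). The 3 called decreases were on anterior (5 tested) or central (13 tested) genes. Of the 39 genes 30 passed the filter on low counts and were tested, 7 were higher with TGF-β1 (HOXA11, HOXB2, HOXC9, HOXC11, HOXD9, HOXD10 and HOXD11), 3 were lower (HOXA3, HOXB4 and HOXB5) and 20 were not called. Calls are edgeR quasi-likelihood tests with Benjamini-Hochberg adjusted p under 0.05 over all 17215 genes tested. The HOX share called, 33.3%, was near the 38.9% of all genes tested. The 3 libraries of each group did not overlap for 15 of the 30 HOX genes, against 47.4% of all genes tested. The median log2 fold change was -0.02 over the HOX genes and -0.01 over all genes, and the median size regardless of sign 0.33 and 0.22. Summed over the family, HOX RNA was 380.1, 386.8 and 362.9 CPM with TGF-β1 against 369.8, 363.4 and 363.0 CPM untreated, a ratio of 1.03, and the groups overlapped. Scaling by library totals alone shifted the fold changes of all genes by a median of -0.12 on the log2 scale, and the split over all genes then becomes 2019 higher and 5354 lower, against 3471 and 3226 with TMM scaling. Under it 4 HOX genes were higher and 8 lower, and with upper-quartile scaling 5 were higher and 6 lower. Without untreated replicate 2, 4 HOX genes were higher and 1 lower.

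**Figure D2:**
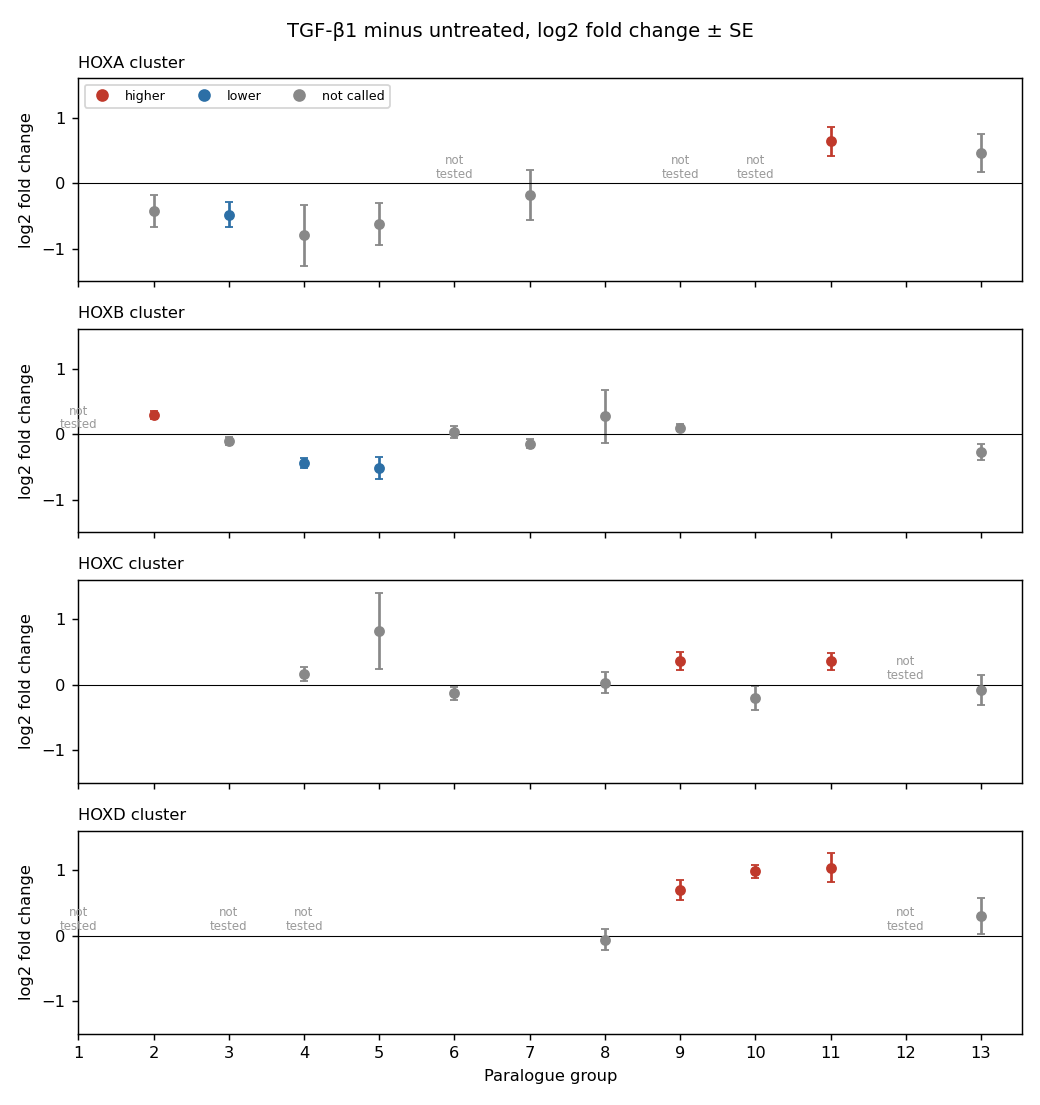
Log2 fold change with TGF-β1 (TGF-β1 minus untreated, edgeR) ± SE of 29 tested HOX genes against paralogue group, one panel per cluster, coloured by call. HOXD9, HOXD10 and HOXD11 lie between 0.69 and 1.03, and the 5 tested genes of HOXA2 to HOXA7 lie below 0.

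The HOXD cluster gave the largest increases. Its posterior neighbours HOXD9, HOXD10 and HOXD11, which pattern the limbs and the lumbosacral region in the mouse, rose together. No tested HOXD gene was called lower. HOXD10 had 22.6, 19.1 and 19.9 CPM in the TGF-β1 libraries, against 9.72, 10.9 and 10.6 CPM in the untreated libraries. Every treated library lay above every untreated one, by more than the spread within either group. The fold change was 1.97 (log2 0.98 ± 0.10 SE, edgeR adjusted p = 7.92e-11).

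HOXD11 had 5.22, 4.75 and 5.06 CPM with TGF-β1, against 2.53, 1.44 and 3.39 CPM untreated. The untreated libraries spread widely but all lay below the treated ones. Its fold change was 2.05 (log2 1.03 ± 0.22 SE, edgeR adjusted p = 2.07e-04). HOXD9 had 6.91, 7.40 and 7.65 CPM with TGF-β1, against 4.29, 4.004 and 5.32 CPM untreated, again with no overlap. Its fold change was 1.62 (log2 0.69 ± 0.16 SE, edgeR adjusted p = 3.87e-04). HOXD10 and HOXD11 share 16.8% and 21.4% of their exonic bases with each other, and reads there were counted to neither. The call of HOXD11 was lost on log2(FPKM + 1) values with no filter (adjusted p = 0.0504, the highest over 17 alternatives, the lowest being 9.3e-06).

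At the posterior end HOXD13, the digit gene, had 2.18, 2.09 and 2.09 CPM with TGF-β1, against 2.08, 1.97 and 1.11 CPM untreated. The groups did not overlap, but the first 2 untreated libraries lay close to the treated ones, and the log2 fold change of 0.30 ± 0.28 (SE) was not called (edgeR adjusted p = 0.435). At the other end of the HOXD9 to HOXD11 block HOXD8 had 5.62, 4.50 and 6.76 CPM with TGF-β1, against 6.49, 6.14 and 4.93 CPM untreated, and the groups overlapped (log2 fold change -0.06 ± 0.17 SE). HOXD1, HOXD3, HOXD4 and HOXD12 were too low to test. The whole cluster came to 43.5, 38.4 and 41.9 CPM with TGF-β1, against 25.9, 25.2 and 25.9 CPM untreated, 1.61 times as much.

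In the other clusters HOXA11, HOXC9 and HOXC11 rose as well, while HOXB9 and HOXC10 were not called. Group 11 was thus called in all 3 of its genes, against 38.9% of all genes tested. HOXC11 had 9.06, 9.63 and 9.27 CPM with TGF-β1, against 6.53, 7.42 and 7.85 CPM untreated, with no overlap (log2 fold change 0.36 ± 0.13 SE, edgeR adjusted p = 0.026). HOXA11 had 5.62, 3.94 and 3.01 CPM with TGF-β1, against 2.72, 2.199 and 3.14 CPM untreated. Here the groups overlapped, since treated library 3 lay below untreated library 3, and treated library 1 was far above the rest (log2 fold change 0.64 ± 0.22 SE, edgeR adjusted p = 0.0185). HOXA11 shares 31.1% of its exonic bases with its antisense row HOXA11-AS, which was not called (log2 fold change -0.16 ± 0.58 SE). HOXC9, which sets thoracic motor neuron identity in the mouse, had 9.06, 8.13 and 8.34 CPM with TGF-β1, against 6.56, 6.01 and 7.25 CPM untreated, with no overlap (log2 fold change 0.37 ± 0.14 SE, edgeR adjusted p = 0.032). These 3 calls depend on single libraries and on the scaling. HOXA11 was no longer called without treated replicate 1 or untreated replicate 2 (highest adjusted p over the alternatives 0.261), HOXC9 without treated replicate 1 or 3 or untreated replicate 1 or 2 (0.153), and HOXC11 without treated replicate 2 or 3 or untreated replicate 1 or 2 (0.141), and none of the 3 was called on library totals alone.

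HOXB9, the most abundant HOX transcript per unshared kilobase, moved little. It had 63.6, 63.2 and 63.6 CPM with TGF-β1, against 60.4, 60.9 and 57.0 CPM untreated, without overlap but with a log2 fold change of 0.09 ± 0.05 (SE, edgeR adjusted p = 0.156). HOXC10, a hindlimb gene in the mouse, had 5.13, 3.91 and 3.44 CPM with TGF-β1, against 5.53, 4.46 and 4.28 CPM untreated, and was not called (log2 fold change -0.20 ± 0.18 SE). Over all 12 posterior genes tested, 6 were higher and none was lower (median log2 fold change 0.36), against 20.2% and 18.7% of all genes. That count ran from 3 to 6 higher and 0 to 1 lower when 1 library was left out, with 3 higher (HOXD9, HOXD10 and HOXD11) without untreated replicate 2. With library totals alone the same 3 HOXD genes were higher and HOXB13 was lower. Of the 13 central genes tested none was higher and 2 were lower (median -0.13). Of the 5 anterior genes tested 1 was higher and 1 lower (median -0.42). The share called was 50% of posterior, 15.4% of central and 40% of anterior genes tested, against 38.9% of all genes. Whether the 3 classes differ was not tested.

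None of the 4 genes of group 13, the last of each cluster, was called, against 38.9% of all genes tested. Of the 4, 2 had positive and 2 negative fold changes. Whether group 13 differs from groups 9 to 11 was not tested. HOXB13, the prostate gene, had 10.8, 9.94 and 9.19 CPM with TGF-β1, against 10.97, 11.6 and 13.6 CPM untreated. The treated libraries were all below the untreated ones, by little between treated library 1 and untreated library 1. The log2 fold change was -0.27 ± 0.12 (SE, edgeR adjusted p = 0.0662), and it was called lower without treated replicate 1 or untreated replicate 1 and with upper-quartile or total scaling (lowest adjusted p over the alternatives 0.00639). HOXA13, a gene of the distal limb and genital tract, had 2.14, 2.06 and 1.62 CPM with TGF-β1, against 1.02, 1.64 and 1.57 CPM untreated, with a small overlap (log2 fold change 0.46 ± 0.29 SE). HOXC13, which controls hair keratins, was uneven among treated libraries at 2.83, 6.94 and 4.21 CPM, against 5.37, 4.82 and 4.71 CPM untreated (log2 fold change -0.08 ± 0.23 SE).

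**Figure D3:**
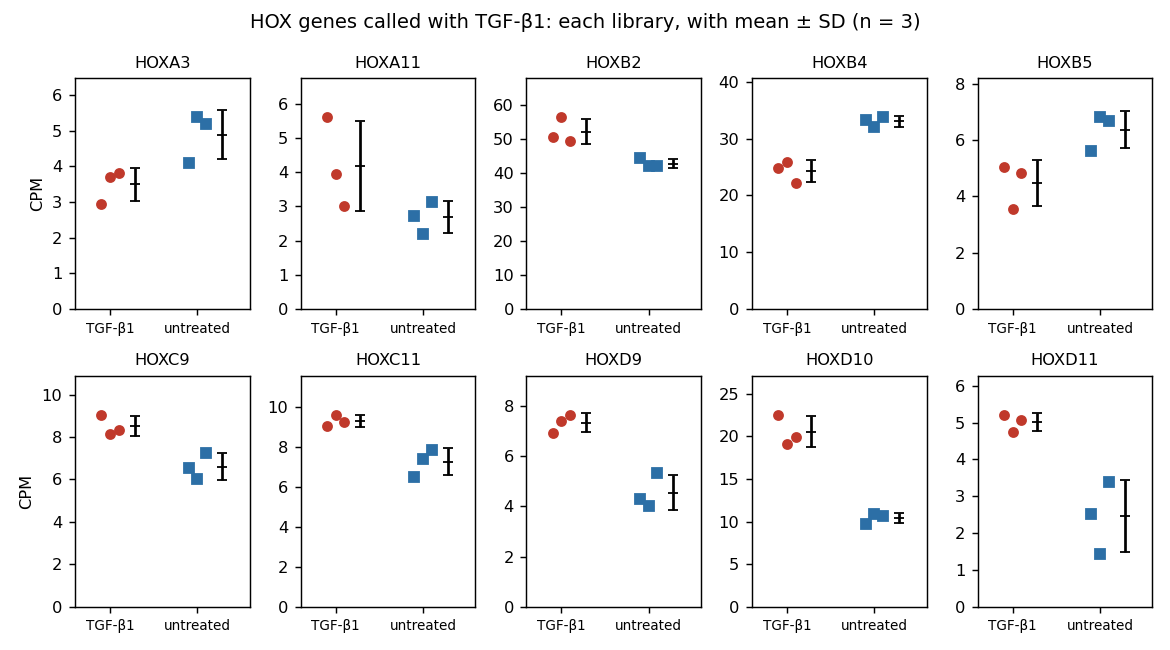
CPM of the 10 called HOX genes in each library (vertical axes start at 0), TGF-β1 libraries as circles at left and untreated libraries as squares at right of each panel, with the mean ± SD of 3 libraries as a black bar. HOXD10 shows 19.1 to 22.6 CPM with TGF-β1 and 9.72 to 10.9 CPM untreated, and HOXA11 is the panel in which the groups overlap.

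In the HOXB cluster the called genes were anterior and central, and went both ways. HOXB2, which specifies part of the hindbrain in the mouse, rose, and HOXB4 and HOXB5 fell. HOXB2 had 50.6, 56.5 and 49.5 CPM with TGF-β1, against 44.4, 42.1 and 41.9 CPM untreated, without overlap (log2 fold change 0.29 ± 0.06 SE, edgeR adjusted p = 1.54e-04). HOXB4 had 24.8, 25.9 and 22.2 CPM with TGF-β1, against 33.3, 32 and 33.8 CPM untreated. All treated libraries were below all untreated ones, and the log2 fold change was -0.44 ± 0.08 (SE, edgeR adjusted p = 5.06e-06). HOXB5 had 5.05, 3.56 and 4.83 CPM with TGF-β1, against 5.63, 6.83 and 6.68 CPM untreated, also without overlap (log2 fold change -0.51 ± 0.17 SE, edgeR adjusted p = 0.0124). Leaving out treated replicate 2 or untreated replicate 2 ended the HOXB5 call (highest adjusted p over the alternatives 0.119), while HOXB2 and HOXB4, like HOXD9 and HOXD10, were called under all 17 alternatives.

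The other tested HOXB genes were not called under the TMM scaling. HOXB3 averaged 51.3 ± 3.38 CPM with TGF-β1 and 55.1 ± 2.44 CPM untreated (log2 fold change -0.10 ± 0.06 SE, edgeR adjusted p = 0.165), and was called lower with upper-quartile factors (adjusted p = 0.038) and library totals (0.00161). Of its exonic bases 13.2% are shared, with HOXB4 and HOXB6 among others. HOXB6 averaged 19.3 ± 2.40 CPM with TGF-β1 and 19.1 ± 0.213 CPM untreated (log2 fold change 0.02 ± 0.09 SE). HOXB7 averaged 33.5 ± 4.38 CPM with TGF-β1 and 37.1 ± 1.12 CPM untreated (log2 fold change -0.15 ± 0.07 SE, edgeR adjusted p = 0.126), and was called lower without treated replicate 2 and with upper-quartile or total scaling (lowest adjusted p 0.00337). HOXB8 was low, at 1.13 ± 0.507 CPM with TGF-β1 and 0.932 ± 0.442 CPM untreated. The cluster total was 260.8, 271.0 and 247.2 CPM with TGF-β1, against 269.7, 264.1 and 263.8 CPM untreated, with overlap.

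In the low-numbered part of HOXA the fold changes lay below 0 in all 5 tested genes of HOXA2 to HOXA7, with a median log2 fold change of -0.48, but 1 of the 5 was called. The sign of HOXA7 turned without treated replicate 1 (0.078) or untreated replicate 1 (0.13). HOXA3, which patterns the pharyngeal arches, thymus and parathyroid, had 2.95, 3.70 and 3.82 CPM with TGF-β1, against 4.09, 5.38 and 5.18 CPM untreated. The groups did not overlap, and the log2 fold change was -0.48 ± 0.19 (SE, edgeR adjusted p = 0.0373). That call is weak: it was lost under 10 of 17 alternatives, among them DESeq2, limma-voom and the fits without treated replicate 1 or 2 or untreated replicate 2 or 3 (adjusted p 0.00805 to 0.276 over all alternatives). HOXA5, a lung and upper trunk gene, had 1.253, 0.872 and 1.197 CPM with TGF-β1, against 1.89, 1.61 and 1.61 CPM untreated. The treated libraries were all below the untreated ones, but the log2 fold change of -0.62 ± 0.31 (SE) was not called (edgeR adjusted p = 0.118).

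HOXA2, which specifies the second pharyngeal arch, and HOXA4 overlapped between groups (log2 fold changes -0.42 ± 0.25 and -0.80 ± 0.46 SE), as did HOXA7 (-0.17 ± 0.38 SE). HOXA4 averaged 0.536 ± 0.279 CPM with TGF-β1 and 0.927 ± 0.362 CPM untreated, so its fold change rests on few reads. HOXA6 had 13 counts in all and was not tested. In HOXC the genes outside groups 9 and 11 were not called. HOXC4 averaged 13.7 ± 0.924 CPM with TGF-β1 and 12.2 ± 0.915 CPM untreated (log2 fold change 0.16 ± 0.11 SE). HOXC6 averaged 13.2 ± 0.428 CPM with TGF-β1 and 14.4 ± 0.309 CPM untreated (log2 fold change -0.13 ± 0.10 SE, called lower with library totals alone), and HOXC8 5.40 ± 0.129 and 5.28 ± 0.174 CPM in the same order (0.03 ± 0.16 SE). HOXC5 was too thinly counted to place, with a log2 fold change of 0.82 ± 0.58 (SE).

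Paralogues shared a sign in some groups and not in others. Beside group 11, all 3 tested genes of group 9 (HOXB9, HOXC9 and HOXD9) had positive fold changes (HOXB9 turned to -0.025 with library totals alone). They had no overlap between TGF-β1 and untreated libraries, and 2 of them were called. Over all genes tested 47.4% had no overlap and 38.9% were called. Both tested genes of group 3 had negative fold changes, with HOXA3 called and HOXB3 not. In group 4 HOXB4 was lower and HOXA4 negative and uncalled (log2 fold change -0.80), while HOXC4 had a positive, uncalled fold change. In group 5 HOXB5 was lower and HOXA5 negative and uncalled (-0.62), while HOXC5, on 69 counts, was positive and uncalled. Within group 2 HOXB2 was higher and HOXA2 negative and uncalled. In group 10 HOXD10 was higher at 1.97-fold, while HOXC10 was at 0.871-fold and uncalled. Groups 6, 7 and 8 had no called gene among 7 tested. Differences between paralogues were not tested.

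Most of the non-coding rows tested in the clusters were not called, and those that were went both ways. Of 64 non-coding rows within the clusters or 20 kb of them, 19 were tested, 3 were higher (AC103702.2, HOXB-AS4 and HOXD-AS2), 2 were lower (HOXA-AS2 and AC012531.1) and 14 were not called, that is 26.3% called against 38.9% of all genes. AC103702.2, a long intergenic RNA at chr17:48635923-48647023 on the minus strand, in the gap between HOXB9 and HOXB13, had 22.2, 23.2 and 21.3 CPM with TGF-β1, against 10.2, 9.68 and 12.5 CPM untreated. The treated libraries were all far above the untreated ones (log2 fold change 1.05 ± 0.10 SE, edgeR adjusted p = 1.24e-11). HOXB-AS4, on the plus strand, which overlaps the upstream end of the HOXB7 row, had 5.13, 4.36 and 4.64 CPM with TGF-β1, against 2.18, 2.04 and 1.96 CPM untreated, without overlap (log2 fold change 1.19 ± 0.21 SE, edgeR adjusted p = 6.84e-06). HOXB9 on one side of them and HOXB13 on the other were not called.

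Further into the gap LINC02086 had 2.51, 2.02 and 2.90 CPM with TGF-β1, against 1.76, 1.71 and 1.57 CPM untreated, all treated above all untreated, with a log2 fold change of 0.56 ± 0.26 (SE, edgeR adjusted p = 0.0883). The MIR196A1 hairpin row in the same interval, whose mature sequence is given above, had 1.05, 0.593 and 0.386 CPM with TGF-β1, against 0.480, 0.361 and 0.214 CPM untreated, with overlap (log2 fold change 0.92 ± 0.53 SE, edgeR adjusted p = 0.179). Its 85 counts were almost all the counts on miR-196 and miR-10 hairpin rows, since the others held 0 to 2. Every base of the MIR10A and MIR196B rows is shared with other rows, so their 0 follows from the counting and gives no level. MIR10B and MIR196A2, which like MIR196A1 share no bases, held 0 and 2 counts.

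HOXD-AS2, antisense across the HOXD8 and HOXD9 region, had 1.86, 2.30 and 2.47 CPM with TGF-β1, against 1.02, 0.591 and 1.11 CPM untreated. It rose with its neighbour HOXD9, without overlap between groups (log2 fold change 1.29 ± 0.31 SE, edgeR adjusted p = 8.7e-04). HOXA-AS2, antisense across HOXA3 and HOXA4, had 0.485, 0.768 and 1.24 CPM with TGF-β1, against 2.18, 1.58 and 1.39 CPM untreated, and fell without overlap (log2 fold change -1.04 ± 0.35 SE, edgeR adjusted p = 0.0156). Its call was lost without treated replicate 1 or untreated replicate 1. AC012531.1, in HOXC, averaged 2.43 ± 0.199 CPM with TGF-β1 and 3.56 ± 0.477 CPM untreated (log2 fold change -0.55 ± 0.22 SE, edgeR adjusted p = 0.0391), a call lost under 10 alternatives, among them the fits without treated replicate 1 or 3 or untreated replicate 1 or 3.

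HOTAIR, the HOXC antisense RNA known for binding Polycomb proteins, averaged 5.42 ± 0.265 CPM with TGF-β1 and 4.84 ± 0.459 CPM untreated and was not called (log2 fold change 0.16 ± 0.16 SE, edgeR adjusted p = 0.479). HAGLR, antisense to the low-numbered HOXD genes, averaged 11.7 ± 1.44 and 12.05 ± 1.76 CPM in the same order (log2 fold change -0.04 ± 0.12 SE). HOXB-AS1 (log2 fold change 0.26 ± 0.25 SE) and the pseudogene AC016739.1 (0.01 ± 0.17 SE) were not called. HOXA-AS2, HOXD-AS2 and MIR196A1 were singled out after their values were seen, and the others follow the rule for named genes. Since the rows whose exons are shared with the opposite strand alone were at 0, as given above, reads had not been counted by strand, and reads of a gene and of its antisense partner cannot be told apart outside the shared exons that went uncounted.

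**Figure D4:**
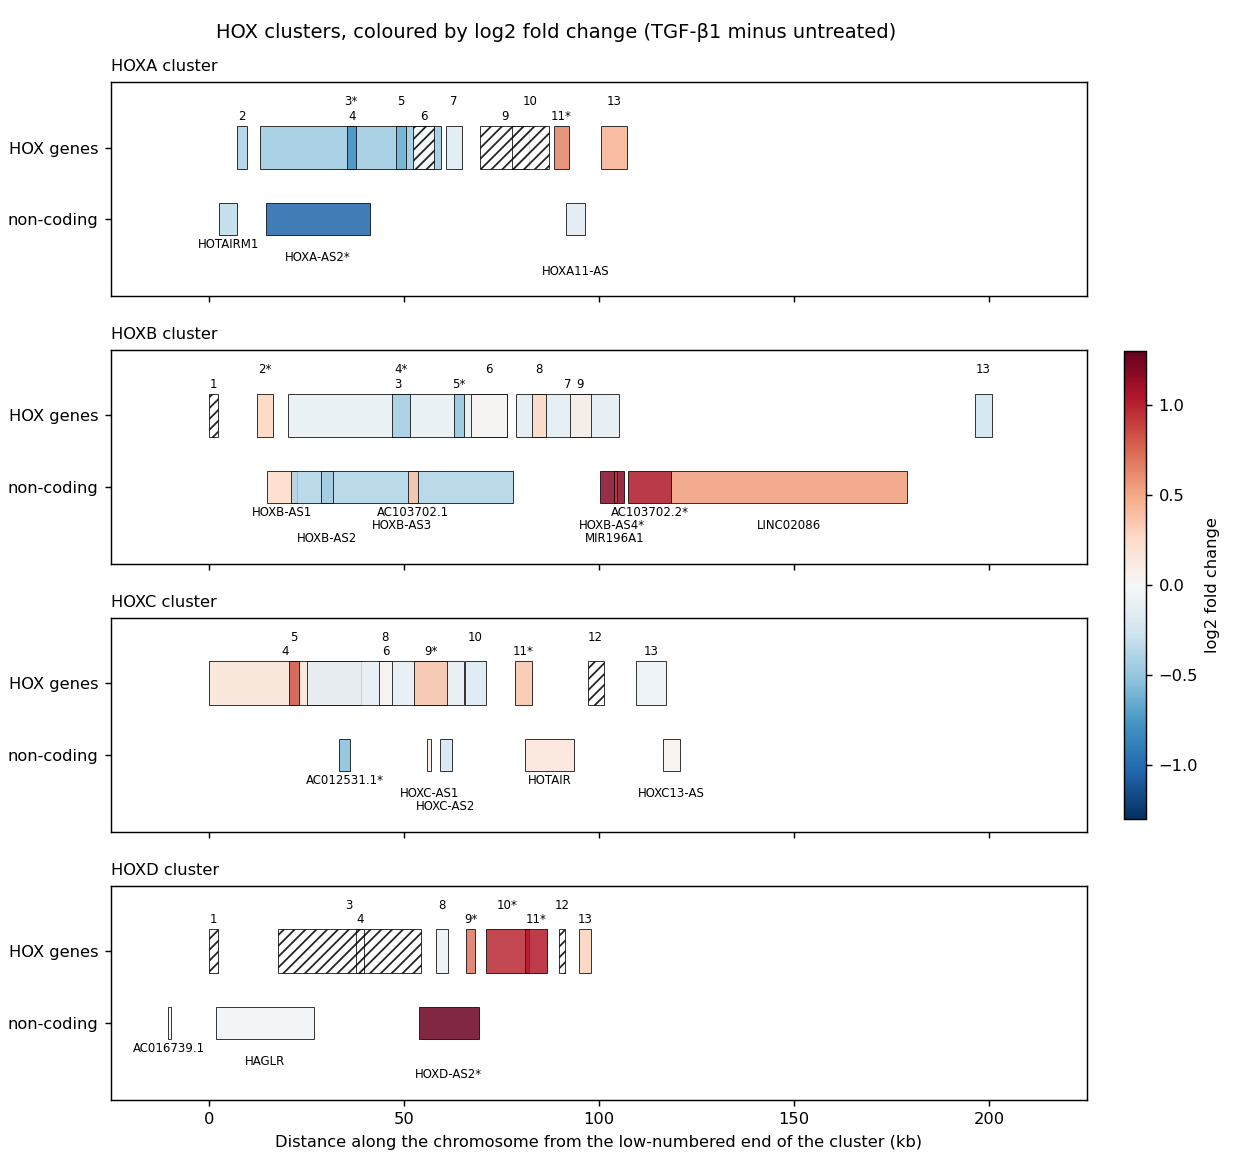
Map to scale of the 4 clusters: HOX genes (upper row, labelled by paralogue number) and tested non-coding rows (lower row) against distance in kb from the low-numbered end, coloured by log2 fold change (TGF-β1 minus untreated). Asterisks mark calls, and hatched boxes were not tested. The red boxes of HOXD9 to HOXD11 and HOXD-AS2 adjoin, and the called non-coding boxes of HOXB, HOXB-AS4 and AC103702.2, lie between HOXB9 and HOXB13, with paler red boxes of uncalled HOXB-AS1 and AC103702.1 nearer the low-numbered end.

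The nearest coding genes outside the clusters did not share one direction. Beside HOXD13, EVX2 had 6 counts and was not tested, and MTX2 beyond HOXD1 was not called (log2 fold change -0.05 ± 0.08 SE). Beyond HOXB13, TTLL6, a tubulin-modifying enzyme, had 1.46, 1.99 and 1.16 CPM with TGF-β1, against 3.61, 2.95 and 2.96 CPM untreated. It fell (log2 fold change -1.04 ± 0.25 SE, edgeR adjusted p = 7.29e-04), opposite in sign to AC103702.2 in the gap on the other side of HOXB13. CALCOCO1, 211 kb from HOXC13, also fell, by 0.16 on the log2 scale (edgeR adjusted p = 0.0109), a call lost without treated replicate 3, and SMUG1 beyond HOXC4 was not called (0.11 ± 0.08 SE). SKAP2 beside the HOXA cluster was not called (-0.02 ± 0.10 SE), and EVX1 and SKAP1 were too low to test.

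Among the TALE-class genes, which include the DNA-binding cofactors of HOX proteins, PKNOX2 and MEIS1 rose most. All 11 were tested, 5 were higher (PKNOX2, MEIS1, MEIS3, TGIF2 and PKNOX1), 1 was lower (MEIS2) and 5 were not called, that is 54.5% called against 38.9% of all genes, with a median log2 fold change of 0.09. PKNOX2 had 7.52, 7.12 and 7.53 CPM with TGF-β1, against 0.256, 0 and 0.214 CPM untreated. Its untreated level rests on 8, 0 and 6 counts, against 186, 204 and 195 counts with TGF-β1, so the size of its fold change is loosely fixed (log2 5.53 ± 0.33 SE, edgeR adjusted p = 1.21e-16). It was 4.94 without untreated replicate 2 and 6.10 without untreated replicate 1. MEIS1, a partner of posterior HOX proteins, had 57.0, 69.4 and 58.8 CPM with TGF-β1, against 27.7, 31.0 and 27.9 CPM untreated, a log2 fold change of 1.10 ± 0.07 (SE, edgeR adjusted p = 1.66e-16). MEIS3 averaged 82.3 ± 1.09 CPM with TGF-β1 and 62.2 ± 1.38 CPM untreated (log2 fold change 0.40 ± 0.05 SE), and MEIS2 30.9 ± 0.850 and 37.3 ± 1.63 CPM in the same order (-0.27 ± 0.07 SE). PBX3 was not called (0.09 ± 0.07 SE).

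The chromatin regulators of the clusters changed in both directions. Of 30 Polycomb genes 7 were higher and 8 lower (median log2 fold change 0.02), and of 23 Trithorax and related activators 8 were higher and 3 lower (median 0.02), that is 50% and 47.8% called against 38.9% of all genes. JARID2, a Polycomb repressive complex 2 cofactor, averaged 108.3 ± 2.61 CPM with TGF-β1 and 37.6 ± 1.6 CPM untreated (log2 fold change 1.53 ± 0.05 SE). CBX7, the chromodomain reader of complex 1, averaged 5.98 ± 0.266 CPM with TGF-β1 and 10.2 ± 0.881 CPM untreated (-0.77 ± 0.13 SE), and PCGF3 rose by 0.58 ± 0.05 on the same scale. EZH2, the methyltransferase of complex 2, was lower, at 64.2 ± 4.44 CPM with TGF-β1 and 76.2 ± 3.42 CPM untreated (-0.25 ± 0.05 SE). Its partners EED (0.02) and SUZ12 (-0.05) were not called. The 8 lower Polycomb genes also included RBBP4 (-0.29), RBBP7 (-0.26), EZH1 (-0.29), PHF1 (-0.23) and PHF19 (-0.38). KDM6B, which removes the mark that EZH2 writes, averaged 184.3 ± 2.71 CPM with TGF-β1 and 41.8 ± 1.34 CPM untreated (log2 fold change 2.14 ± 0.04 SE, edgeR adjusted p = 1.3e-34). PSIP1, a chromatin tether, fell (-0.30 ± 0.04 SE) and AFF4, of the super elongation complex, rose (0.22 ± 0.04 SE).

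Retinoic acid genes, which act upstream of HOX genes in the embryo, were tested in 12 of 18 cases, with 3 higher, 2 lower and a median log2 fold change of 0.01, and the 41.7% called was near the 38.9% of all genes. STRA6, the retinol uptake receptor, averaged 11.6 ± 0.402 CPM with TGF-β1 and 5.70 ± 0.813 CPM untreated (1.02 ± 0.13 SE). CYP26B1, which degrades retinoic acid, averaged 14.8 ± 2.03 CPM with TGF-β1 and 8.14 ± 0.644 CPM untreated (0.86 ± 0.12 SE). CRABP2, which carries retinoic acid to its receptors, averaged 5.21 ± 0.560 CPM with TGF-β1 and 9.96 ± 0.662 CPM untreated (-0.93 ± 0.14 SE). The receptor RARA was also higher (0.48 ± 0.07 SE) and RXRA lower (-0.26 ± 0.08 SE), RARB was not called, and ALDH1A1 and CRABP1 were at 0 counts.

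Other homeobox and positional factors moved in both directions too. Of 13 ParaHox, EVX, CDX, MEOX, MNX and GBX genes 4 could be tested (PDX1, CDX2, MNX1 and GBX2). None was called, against 38.9% of all genes, and none had an unadjusted p under 0.05 in edgeR. Of 55 other positional transcription factors 38 were tested, 10 were higher and 9 lower (median log2 fold change -0.14), that is 50% called against 38.9% of all genes. PAX3, a neural crest and muscle precursor factor, averaged 5.09 ± 0.826 CPM with TGF-β1 and 11.3 ± 1.45 CPM untreated (-1.15 ± 0.14 SE). TBX20, a heart factor, averaged 9.17 ± 1.07 CPM with TGF-β1 and 4.53 ± 0.354 CPM untreated (1.01 ± 0.15 SE). OSR1, of the intermediate mesoderm, averaged 1.87 ± 0.584 CPM with TGF-β1 and 3.73 ± 0.677 CPM untreated (-0.99 ± 0.24 SE), a call lost on log2 FPKM values.

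**Figure D5:**
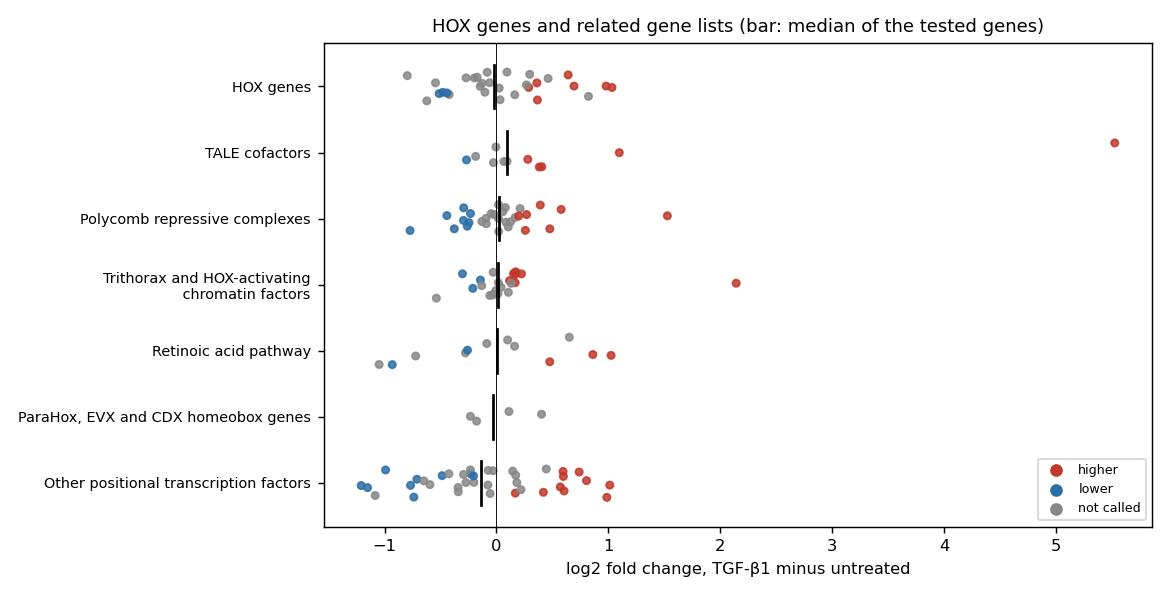
Log2 fold change (TGF-β1 minus untreated, edgeR) of each tested HOX gene and of each tested gene of 6 related lists, 1 point per gene coloured by call, with a black bar at each list's median; vertical scatter within a row carries no value. PKNOX2 lies at 5.53, and the HOX genes lie between -0.80 and 1.03.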

How the data were processed

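Total RNA of 6 LX-2 libraries was sequenced, 3 per group, labelled as biological replicates. No label says that they came from separate passages or days, so p-values measure the spread between these libraries. Per the submitters' processing notes, reads were trimmed with fastp and aligned with HISAT2 2.2.1 to hg38. Neither the labels nor the notes name a counting tool, a strand setting or an annotation, but all 58735 rows match GENCODE 29 by ID, start, end and strand. The authors deposited a table of raw counts and a table of FPKM values. The deposited FPKM values equal the count divided by exon length and by 1 size per library, which is 0.984 to 0.987 of the total count in TGF-β1 libraries and 1.07 to 1.08 in untreated ones. Each table holds 6 further columns that match no sample here, and these were not used. All rows named a gene. In each library more rows held 2 counts than 1, so counting error at low counts is larger than for independent reads.

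Counts were scaled by TMM, filtered with filterByExpr (minimum count 10, minimum total 15) and fitted with edgeR 4.0.16 (robust quasi-likelihood, R 4.3.3), TGF-β1 minus untreated, with 4 residual degrees of freedom and a common dispersion of 0.00316. p-values were Benjamini-Hochberg adjusted over 17215 genes and called under 0.05, and SE is the size of the log2 fold change over the square root of F. CPM uses TMM-scaled totals. Alternatives used DESeq2 1.42.0, limma 3.58.1 (voom, and log2 of FPKM plus 1 or 0.1, with a mean of at least 0.5 or no filter), other scalings and filters, a replicate block and each library left out. Replicate numbers were not used as pairs in the main fit. Deviations of same-numbered libraries correlated at -0.005, 0.011 and -0.009. These values show no shared effect, but they cannot tell whether same-numbered libraries were prepared together.

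The members, lists and tests were chosen with earlier results of these data known. The text names the HOX genes, NSUN2 and NAT10, up to 3 called genes of at least 1 CPM with the largest change from each list, up to 8 tested non-coding cluster rows by mean CPM, and the nearest coding gene on each side of each cluster. Others named, such as MEIS2, EZH2, EED, SUZ12, RBBP4, RBBP7, EZH1, PHF1, PHF19, PBX3, RARA and RXRA, were named after their values were seen. Values of 1 HOX gene and of some other list members are not reported here, and the HOX gene is in the counts over the family but not in the plots by gene.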

Additional observations from a re-analysis of the deposited data

How the results depend on the processing

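Of the 10 HOX calls 4 (HOXB2, HOXB4, HOXD9 and HOXD10) held under all 17 alternatives and none of the 10 changed sign. Of the 20 HOX genes not called, 5 were called under at least 1 alternative and 7 changed sign under at least 1. The 9 HOX genes below the filter on low counts could not be tested at this depth, and why they are low was not tested. The cause of each change below was not tested, except that scaling by library totals shifts all genes downward by construction. With library totals alone 2019 genes were higher and 5354 lower, 4 HOX genes were higher and 8 lower, and 42 list members were lower against 25. With upper-quartile factors 6 HOX genes were lower against 3. On log2(FPKM + 1) with no filter 1978 genes were lower, 4 HOX genes higher and 1 lower, and the calls of HOXA3, HOXA11, HOXB5, HOXC11, HOXD11, HOXA-AS2, AC012531.1, TTLL6, CALCOCO1 and OSR1 were lost. Leaving out 1 library at a time gave 3089 to 3366 higher and 2850 to 3009 lower genes, 4 to 7 higher and 1 to 4 lower HOX genes, and 40 to 45 higher and 22 to 26 lower list members, against 43 and 25.

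Values near 0 that changed sign were uncalled before and after. With upper-quartile factors and library totals these were HOXB6 (-0.021 and -0.095), HOXC8 (-0.013 and -0.087), NAT10 (-0.017 and -0.091) and AC016739.1 (-0.036 and -0.11, and -0.011 with limma-voom), and with library totals alone HOXB9 (-0.025) and SMUG1 (-0.014). Leaving out 1 library, log2 fold changes ran from -0.39 to 0.13 for HOXA7, -0.055 to 0.12 for HOXB6, -0.14 to 0.52 for HOXB8, -0.49 to 0.17 for HOXC13, -0.21 to 0.084 for HOXD8, -0.14 to 0.079 for HAGLR, -0.14 to 0.13 for AC016739.1, -0.13 to 0.0797 for SKAP2, -0.11 to 0.018 for MTX2 and -0.016 to 0.084 for NAT10.

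The replicate block left 7 HOX genes higher and 3 lower, while ending the call of AC012531.1 (log2 fold change -0.54).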
